A study of Homo sapiens and Homo sapiens
Mus with 12 samples.

Results

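A set of 10 genes of the immediate early response and its nearby regulators were described in UM-UC-3 cells with knockdown (KD) of CDH11. The genes were the Fos family members FOS, FOSL1 and FOSL2, the Jun family members JUN, JUNB and JUND, the related factor ATF3, the transcription factors EGR1 and MYC, and the phosphatase gene DUSP6. They were taken by name, with earlier results of these data known, and all 10 were listed among the 21479 genes of the cultured cells and the 26813 human genes of the tumors. UM-UC-3 is an established human cell line from an advanced bladder cancer. CDH11 encodes cadherin-11, a cell adhesion molecule of mesenchymal cells. Cells were infected with lentivirus that carried GFP with a nonsilencing shRNA (shCtrl) or with one of 2 shRNAs against CDH11 (sh#1 and sh#2), and GFP-positive cells were sorted. The methods describe sorted populations and name no cell clone. CDH11 KD stands below for both hairpins together. RNA-seq covered 3 libraries of each population after 24 h of culture, and 5 xenograft tumors of each, taken 4 weeks after injection of the cells under the skin of nude mice aged 5 weeks. For the tumors a second table gave the counts of mouse genes, which come from the host.

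Total counts were 2273182 to 2777019 in the cultured libraries, 414849 to 1248977 for human genes in the tumors and 94406 to 220238 for mouse genes. CDH11 itself was near the limit of detection in culture, with 2, 4 and 4 counts in shCtrl, 0, 0 and 1 in sh#1 and 1, 2 and 0 in sh#2. In tumors CDH11 had 5 to 32 counts in shCtrl, 1 to 9 in sh#1 and 2 to 14 in sh#2, a log2 fold change of -1.67 for sh#1 (q = 0.0260) and -0.73 for sh#2 (q = 0.347) by edgeR. KRT8, KRT18 and VIM of the line were detected in every library of both systems. KRT7 had at most 14 counts in culture and at most 5 in tumors, and KRT19 at most 3 and 1. In shCtrl and sh#2 tumors KRT19 was at 0. EPCAM was at 0 in every cultured library and not analysed here in the tumors. In culture PTPRC and CD3E of leukocytes and PECAM1 and CDH5 of endothelium were at 0, and VWF had at most 1 count. CD68, the macrophage gene of the leukocyte list, was detected, with 75 to 90 counts in shCtrl, 97 to 133 in sh#1 and 114 to 150 in sh#2, and its part in the results below was not tested. Of the fibroblast genes in culture, COL1A1 and COL3A1 had at most 3 counts and DCN at most 1. Among human genes of the tumors CD68 and VWF had at most 1 count, PTPRC at most 2 and PECAM1 at most 3. COL1A1 had 23 to 84 counts in shCtrl tumors, 5 to 49 in sh#1 and 36 to 132 in sh#2. COL3A1 had at most 16 counts and DCN at most 11. The source of these tumor counts was not tested. The line genes KRT7, KRT8, KRT18, KRT19, EPCAM and VIM reached a summed 2374 to 2571 CPM in cultured shCtrl, 2577 to 2772 in sh#1 and 4198 to 4607 in sh#2. Most of the sum was VIM, with 8227 to 8893 counts in sh#2 and 5436 to 6060 in shCtrl. KRT8 had 253 to 306 counts in sh#2 and 266 to 345 in shCtrl, and KRT18 287 to 296 and 318 to 340. Sh#1 tumor 1 stood apart, with the lowest human total, mouse genes at 30.0% of its counts (10.4% to 18.8% in the other 14 tumors) and mouse muscle markers Acta1, Ckm and Myh4 at a summed 7215 CPM (24.6 to 1275 elsewhere). Every shCtrl tumor was in one sequencing library mix, every sh#1 tumor in another and every sh#2 tumor in yet another, so mix and group cannot be told apart in the tumors. In bulk samples fewer expressing cells and less RNA per cell cannot be told apart either.

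Fos and Jun proteins pair through leucine zippers to form AP-1, a factor that binds short DNA sites and drives genes of growth, invasion and stress. Most of these genes belong to the immediate early class, whose transcription rises quickly after growth factors, adhesion signals or stress reach the ERK, JNK and p38 kinases. ERK signalling raises FOS and EGR1 through serum response factor and its partners at CArG boxes, and its sustained activity raises FOSL1 and MYC. DUSP6 is also raised by ERK and in turn removes phosphate from ERK, so it is often read as a feedback gene of the pathway.

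The start regions of 3 of the genes are shown because the later results turn on them. EGR1 was the gene called higher in culture, on few counts, and lower in sh#2 tumors, close to the threshold. JUN was the Jun family gene with the largest rise in culture, and JUND the family gene that was not called higher. The windows are the 250 bases before the annotated start on the strand of the gene, from RefSeq on GRCh38.p14, at chr5:138465229-138465478 on the plus strand for EGR1, chr1:58784048-58784297 on the minus strand for JUN and chr19:18281623-18281872 on the minus strand for JUND. Capitals mark matches to the motifs searched.
EGR1: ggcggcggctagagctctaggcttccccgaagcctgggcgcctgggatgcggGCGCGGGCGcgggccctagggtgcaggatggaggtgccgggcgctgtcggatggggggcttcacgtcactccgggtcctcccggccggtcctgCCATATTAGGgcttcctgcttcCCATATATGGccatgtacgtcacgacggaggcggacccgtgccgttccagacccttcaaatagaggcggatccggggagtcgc
JUN: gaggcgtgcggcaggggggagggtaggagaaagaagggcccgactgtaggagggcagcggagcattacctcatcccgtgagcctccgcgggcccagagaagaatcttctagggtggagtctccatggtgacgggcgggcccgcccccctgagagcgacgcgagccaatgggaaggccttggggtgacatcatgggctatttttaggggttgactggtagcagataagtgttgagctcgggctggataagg
JUND: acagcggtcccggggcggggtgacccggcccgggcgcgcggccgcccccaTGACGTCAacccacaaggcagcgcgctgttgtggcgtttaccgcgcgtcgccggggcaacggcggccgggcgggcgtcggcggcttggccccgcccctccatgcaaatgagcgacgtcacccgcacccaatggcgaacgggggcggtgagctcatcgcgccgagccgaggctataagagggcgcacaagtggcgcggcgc
Both strands were searched for 5 motifs, the CArG box by its name, the CRE (TGACGTCA), the AP-1 site (TGANTCA), the E-box (CACGTG) and the EGR site (GCGNGGGCG), from 250 bases before to 50 after the start, in the 8 of 10 genes that the RefSeq table holds (not FOSL1 and MYC). EGR1 held a pair of CArG boxes, CCATATTAGG from 105 to 96 and CCATATATGG from 83 to 74 bases before the start, and an EGR site, GCGCGGGCG. CArG boxes were in 1.29% of all 35116 promoter windows and EGR sites in 9.43%. JUND held the CRE, found in 1.85% of windows, and FOSL2 an AP-1 site, TGACTCA, from 4 to 10 bases after the start, a motif in 7.71%. No window of these genes held the E-box, which 7.26% of all windows did, and the windows of FOS, JUN, JUNB, ATF3 and DUSP6 had none of the 5 motifs in these letters. A match is a description of the sequence and not a measured binding site.

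In cultured cells, 8 of the 9 genes that passed the low-count filter were higher in CDH11 KD than in shCtrl and none was lower. FOSL1 was at 2.25-fold, JUN at 2.23-fold, MYC at 2.03-fold and DUSP6 at 1.87-fold of shCtrl, EGR1 at 2.59-fold and ATF3 at 4.39-fold on few counts, and JUNB and FOSL2 at 1.51-fold and 1.25-fold. The test was edgeR's quasi-likelihood test of 6 KD against 3 shCtrl libraries, with q the p-value adjusted by the Benjamini-Hochberg method over all 9859 genes tested and a threshold of 0.05. Of all tested genes 9.12% were called higher and 8.32% lower. The median log2 fold change was 1.02 over the 9 genes and 0.00017 over all genes. Of the 8 genes called, 5 (FOSL1, JUN, ATF3, EGR1 and MYC) had a log2 fold change above 1. ATF3 and EGR1 passed the filter only through their KD libraries, so the count of 8 is not support by itself. FOS had too few counts for the filter.

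**Figure D1:**
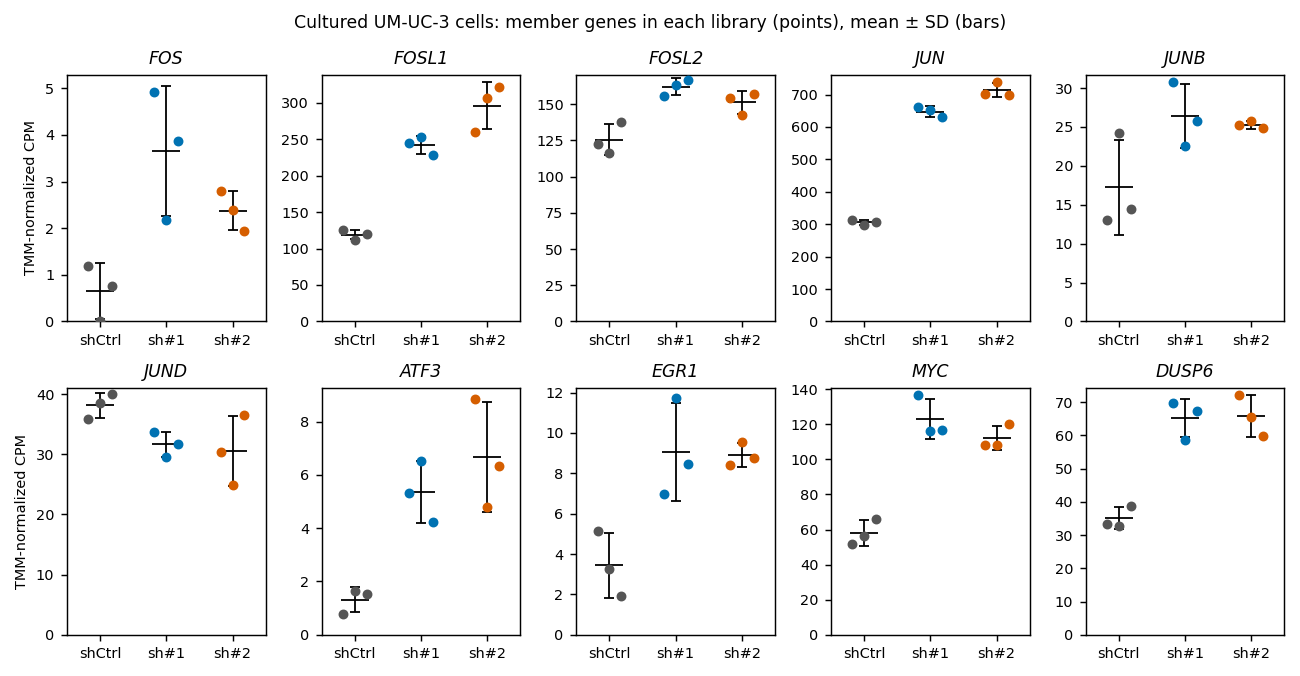
Level of each gene in the 9 cultured libraries, in TMM-normalized CPM, by population. Points are libraries and bars the mean ± SD (n = 3). All KD libraries sit above all shCtrl libraries except for JUNB and JUND. The same held for 11.4% of all genes tested. FOS was below the low-count filter, and ATF3 and EGR1 passed it only through their KD libraries.

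JUN (chr1:58776845-58784048, minus strand, GENCODE on GRCh38) encodes c-Jun, the main partner of Fos proteins in AP-1. Levels are given as CPM, counts relative to the library total after scaling by its TMM factor. JUN was at 312, 298 and 308 CPM for shCtrl, at 661, 652 and 630 for sh#1 and at 702, 740 and 699 for sh#2. The groups did not overlap, and sh#2 libraries were all above sh#1. CDH11 KD gave a log2 fold change of 1.15 (SE 0.0848, 95% interval 0.98 to 1.33, q = 4.55e-08 by edgeR).

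JUNB (chr19:12791486-12793315, plus strand), a Jun protein that can restrain as well as support c-Jun, had 13.0, 24.2 and 14.5 CPM in shCtrl, 30.8, 22.6 and 25.7 in sh#1 and 25.2, 25.8 and 24.8 in sh#2. One shCtrl library reached into the KD range, so the groups overlapped. The log2 fold change was 0.59 (SE 0.191, q = 0.0412 by edgeR), and the call was lost in 10 of 15 alternatives, among them DESeq2, upper quartile normalization and the fits without replicate 1 or 3 of shCtrl, 1 or 3 of sh#1 or any of sh#2 (log2 fold change 0.42 to 0.91 and q = 0.0045 to 0.216 over the alternatives). On the opposite strand the exons of HOOK2 overlap those of JUNB. HOOK2 had 2 to 10 counts in culture, against 33 to 75 for JUNB, and whether the counting used strand is not given in the sources used here.

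JUND (chr19:18279694-18281622, minus strand), a Jun protein linked in other cells to slower growth and protection from oxidative stress, was the only tested gene with a value below shCtrl. It had 35.8, 38.5 and 40.0 CPM in shCtrl, 33.6, 29.6 and 31.7 in sh#1 and 30.3, 24.8 and 36.5 in sh#2. All sh#1 libraries were below all shCtrl libraries, whereas 1 sh#2 library overlapped them. The log2 fold change was -0.29 (95% interval -0.58 to -0.01, unadjusted p = 0.0445, q = 0.146 by edgeR), which did not pass the threshold.

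FOSL1 (chr11:65892049-65900573, minus strand) encodes FRA1, a Fos protein tied to invasion and mesenchymal states in carcinoma. Its levels were 125, 112 and 120 CPM in shCtrl, 245, 253 and 229 in sh#1 and 260, 307 and 321 in sh#2. None of the 3 groups overlapped another. CDH11 KD gave a log2 fold change of 1.17 (SE 0.114, 95% interval 0.93 to 1.41, q = 1.52e-06 by edgeR).

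FOSL2 (chr2:28392448-28417317, plus strand), which encodes the related protein FRA2, changed less, with 122, 116 and 138 CPM in shCtrl, 156, 163 and 167 in sh#1 and 154, 142 and 157 in sh#2. The KD libraries were above the shCtrl libraries by a narrow margin. Its log2 fold change of 0.32 (SE 0.0916, q = 0.0220 by edgeR) was not called without shCtrl replicate 1 or without shCtrl replicate 2, with q up to 0.128.

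FOS (chr14:75278826-75282230, plus strand), the founding Fos gene, had 3, 0 and 2 counts in shCtrl, 12, 5 and 11 in sh#1 and 6, 5 and 4 in sh#2. All KD libraries were above all shCtrl libraries, at counts that the filter removed. Without the filter the log2 fold change was 2.15 (SE 0.644, q = 0.0241 by edgeR) for both hairpins, 2.41 (q = 0.00357) for sh#1 and 1.79 (q = 0.0597) for sh#2.

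ATF3 (chr1:212565334-212620777, plus strand) encodes a stress-responsive factor that pairs with Jun proteins. The counts were 2, 4 and 4 in shCtrl, 13, 15 and 12 in sh#1 and 19, 10 and 13 in sh#2, or 0.787 to 1.64 CPM against 4.23 to 8.87 CPM. Every KD library was above every shCtrl library, and ATF3 passed the low-count filter only through its KD libraries. The log2 fold change of 2.13 (95% interval 1.27 to 3.00, q = 0.00190 by edgeR) was the largest of the tested genes in size, and its interval was also the widest.

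EGR1 (chr5:138465479-138469303, plus strand) encodes a zinc finger factor induced within minutes of mitogen stimulation. In culture it had 13, 8 and 5 counts in shCtrl, 17, 27 and 24 in sh#1 and 18, 20 and 18 in sh#2. The levels were 5.12, 3.28 and 1.91 CPM, then 6.97, 11.7 and 8.45, and then 8.40, 9.56 and 8.77 CPM. The groups did not overlap, at counts of at most 13 in shCtrl. EGR1 passed the low-count filter only through its KD libraries, so its call is not support by itself. The log2 fold change was 1.37 (SE 0.313, 95% interval 0.72 to 2.03, q = 0.00603 by edgeR). It was 1.08 and no longer called without shCtrl replicate 3 (q = 0.0515).

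MYC encodes a growth-promoting factor that acts with MAX at E-boxes. Its levels were 51.6, 56.2 and 66.3 CPM in shCtrl, 137, 116 and 117 in sh#1 and 108, 108 and 120 in sh#2. No KD library overlapped shCtrl. MYC rose by a log2 fold change of 1.02 (SE 0.114, 95% interval 0.78 to 1.26, q = 8.63e-06 by edgeR). Its antisense neighbour CASC11 had 0 or 1 counts per tumor and was not analysed here in culture.

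DUSP6 (chr12:89347235-89352501, minus strand) had 33.5, 32.8 and 38.9 CPM in shCtrl, 69.7, 58.7 and 67.3 in sh#1 and 72.3, 65.5 and 59.9 in sh#2. The KD libraries were again all above shCtrl, and both hairpins covered the same range. Its log2 fold change was 0.90 (SE 0.121, 95% interval 0.65 to 1.16, q = 6.88e-05 by edgeR). Exons of another gene, on the opposite strand, overlap those of DUSP6, and its counts were not analysed here. For FOSL1, JUN, MYC and DUSP6 the call held in every alternative. For ATF3 it held wherever the gene was tested, but ATF3 entered the tests only through its KD libraries. Every KD library was above every shCtrl library for 7 of the 9 tested genes and for 11.4% of all genes tested. The 7 include ATF3 and EGR1, which passed the filter only through KD libraries, so this count is not support by itself.

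Separately, each hairpin gave the same 8 calls. Against shCtrl, sh#1 had 8 of 9 higher and 0 lower (11.8% and 10.6% of all genes tested), and sh#2 had 8 of 9 higher and 0 lower (19.5% and 18.8%). The hairpins share the shCtrl libraries, so these counts are not independent of each other. Both counts also include ATF3 and EGR1, which passed the filter only through KD libraries. Compared directly, 1 of the 9 genes differed between sh#1 and sh#2 in culture, against 24.7% of all genes tested (11.2% higher and 13.5% lower in sh#1). FOSL1 was lower in sh#1 than in sh#2 by a log2 value of -0.29 (SE 0.0734, q = 0.00198 by edgeR). JUN differed in the same direction by -0.14 (95% interval -0.26 to -0.02), which did not pass the threshold (q = 0.0712). Both genes had every sh#1 library below every sh#2 library, as did 19.4% of all genes. For EGR1 and DUSP6 the differences were 0.01 (95% interval -0.58 to 0.61) and -0.01 (-0.25 to 0.22), the EGR1 interval being the wider.

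**Figure D2:**
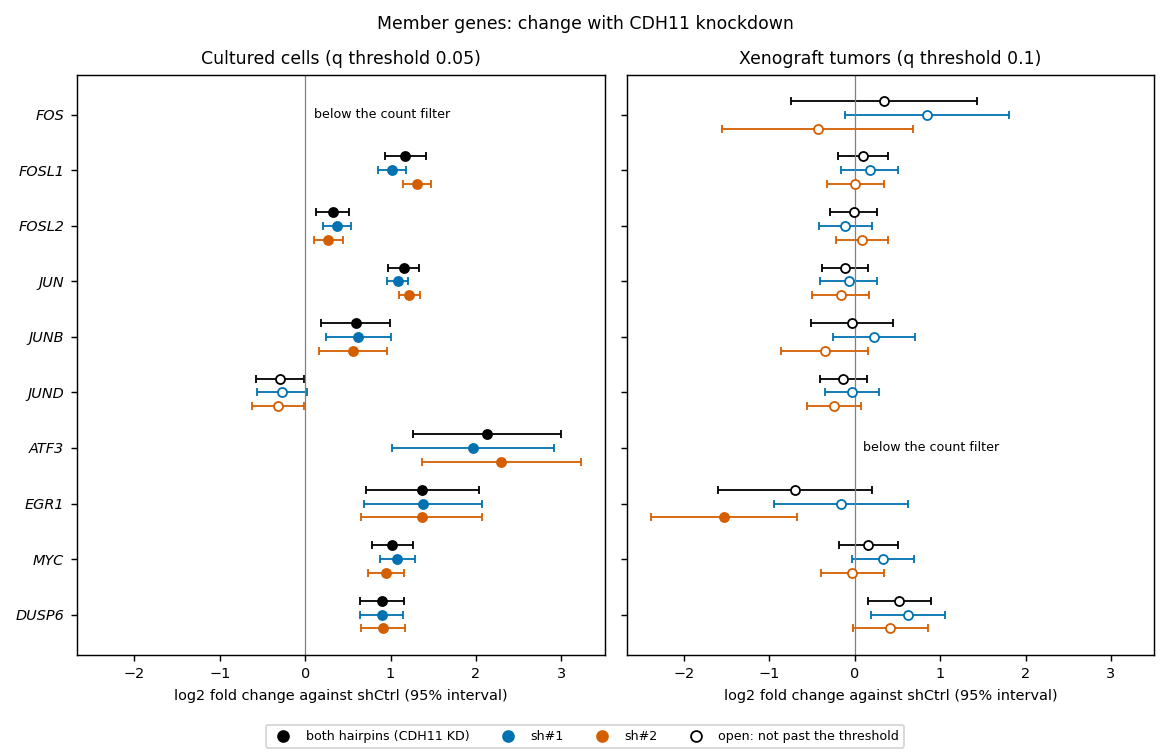
Log2 fold change of each gene against shCtrl with its 95% interval from edgeR, in cultured cells (left) and tumors (right), for both hairpins together and for each. Filled points passed the threshold. In culture 8 genes lie to the right of 0 for both hairpins, and in tumors the single filled point is EGR1 in sh#2 at -1.53.

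In the xenograft tumors, 0 of the 9 tested genes were called in CDH11 KD against shCtrl (10 against 5 tumors, threshold 0.1 on q, 9184 genes tested). Over all genes 0.697% were called higher and 0.817% lower. By unadjusted p under 0.05 there was 1 gene, DUSP6, and DESeq2 called 0 of them. The median log2 fold change was -0.01 over the 9 genes and 0.0055 over all. ATF3, with 0 to 6 counts a tumor, was below the filter. Culture and tumor counts were normalized in separate tables, so levels are set side by side and no difference between the systems was tested.

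**Figure D3:**
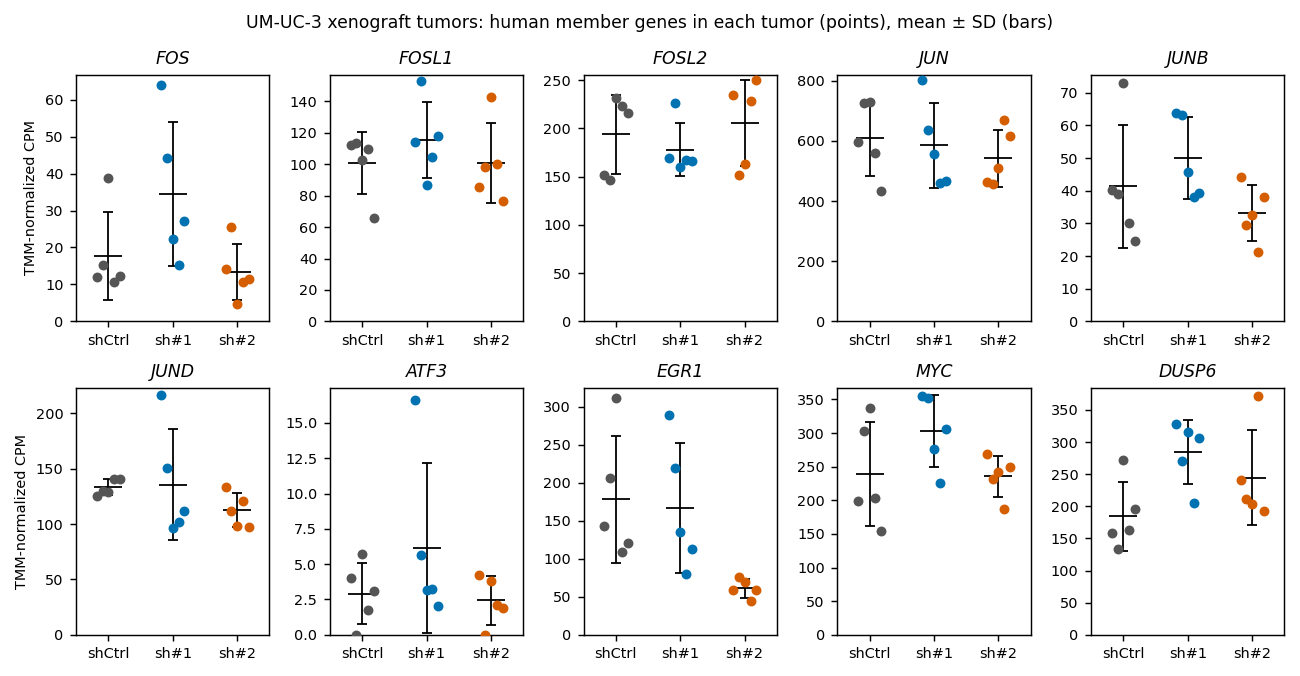
Level of each human gene in the 15 tumors, in TMM-normalized CPM, by population. Points are tumors and bars the mean ± SD (n = 5). The groups overlap for every gene except EGR1, for which the 5 sh#2 tumors lie between 43.8 and 76.6 CPM, below the other 10.

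EGR1 was the one member called in any comparison of the tumors. The shCtrl tumors had 143, 207, 311, 109 and 121 CPM (counts 178, 191, 273, 123 and 79), the sh#1 tumors 289, 219, 135, 80.5 and 112 CPM, and the sh#2 tumors 58.3, 76.6, 69.0, 43.8 and 59.2 CPM (counts 41, 57, 72, 41 and 31). All sh#2 tumors lay below all shCtrl tumors, which held for 1.59% of genes, and below all sh#1 tumors, which held for 1.4%. Means were 178 ± 83.3 CPM in shCtrl, 167 ± 85.2 in sh#1 and 61.4 ± 12.4 in sh#2 (SD, n = 5).

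Against shCtrl, EGR1 in sh#2 tumors had a log2 fold change of -1.53 (SE 0.395, 95% interval -2.39 to -0.68, q = 0.0880 by edgeR). It was the 1 call among the 9 genes, where sh#2 had 1.36% of all genes higher and 1.32% lower. The call was close to the threshold and held in 12 of 23 alternatives, with log2 fold changes of -1.87 to -1.24 and q of 0.0067 to 0.184. It was lost when shCtrl tumor 1, 2 or 3, sh#1 tumor 3 or 5, or any of the 5 sh#2 tumors was left out, and without the low-count filter.

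For sh#1 tumors the EGR1 value was -0.16 (95% interval -0.94 to 0.62), with 0 of the 9 genes called by edgeR in sh#1 tumors (1, DUSP6, at an unadjusted p under 0.05, and 0 by DESeq2) against 0.773% of all genes higher and 0.708% lower. Its difference between sh#1 and sh#2 tumors was 1.37 (SE 0.405, unadjusted p = 0.00518), which missed the threshold after adjustment (q = 0.201 by edgeR, 0.0242 to 0.404 over the alternatives). The alternatives that called it included DESeq2 and a covariate for the mouse to human ratio. Over all genes 1.19% differed between the hairpins in tumors. In culture, by contrast, EGR1 was at 8.40 to 9.56 CPM in sh#2 and at 1.91 to 5.12 in shCtrl, so sh#2 lay above shCtrl there and below it in tumors. The cultured values rest on 5 to 13 counts in shCtrl, and EGR1 passed the low-count filter there only through its KD libraries.

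DUSP6 had 158, 134, 272, 164 and 196 CPM in shCtrl tumors, 327, 270, 315, 204 and 307 in sh#1 and 242, 211, 203, 372 and 193 in sh#2. A single shCtrl tumor, number 3, reached the sh#1 range. The sh#2 tumors lay at 193 to 242 CPM except for tumor 4, at 372. In CDH11 KD the log2 fold change was 0.52 (SE 0.177, 95% interval 0.15 to 0.89, unadjusted p = 0.00803), not past the threshold (q = 0.205 by edgeR). Without shCtrl tumor 3, DUSP6 was called higher in CDH11 KD and in each hairpin, with a log2 fold change of 0.71 for both, 0.81 for sh#1 and 0.60 for sh#2. In sh#1 it was also called without sh#1 tumor 4 (0.72, q = 0.0987) and without sh#2 tumor 4 (0.62, q = 0.0379). As reported it was 0.62 for sh#1 (q = 0.211) and 0.42 for sh#2 (q = 0.390).

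FOS had 12.0, 15.1, 38.8, 10.7 and 12.3 CPM in shCtrl tumors, 63.8, 44.1, 22.3, 15.2 and 27.3 in sh#1 and 14.2, 25.5, 4.79, 10.7 and 11.5 in sh#2. The sh#1 tumors were spread most widely, and shCtrl tumor 3 was again the highest of its group. None of the tests passed, with 0.85 for sh#1 (95% interval -0.12 to 1.81, q = 0.494), -0.44 for sh#2 (q = 0.784) and 1.28 between sh#1 and sh#2 (unadjusted p = 0.0205, q = 0.365 by edgeR). Without shCtrl tumor 3 the value for sh#1 was 1.33 and passed the threshold (q = 0.0870).

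MYC had 198, 303, 337, 204 and 155 CPM in shCtrl tumors, 226 to 355 in sh#1 and 187 to 269 in sh#2. The 3 groups overlapped. Its log2 fold change in CDH11 KD was 0.16 (95% interval -0.19 to 0.51, q = 0.747 by edgeR). The cultured value was 1.02 (95% interval 0.78 to 1.26), and for MYC too the difference between the systems was not tested. JUN was at 434 to 730 CPM in shCtrl tumors, 461 to 802 in sh#1 and 458 to 669 in sh#2, a log2 fold change of -0.12 (95% interval -0.39 to 0.15, q = 0.761).

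FOSL1, FOSL2, JUNB and JUND also overlapped between all groups. Their log2 fold changes in CDH11 KD were 0.09 for FOSL1 (95% interval -0.20 to 0.39), -0.01 for FOSL2 (-0.29 to 0.26), -0.03 for JUNB (-0.52 to 0.45) and -0.13 for JUND (-0.41 to 0.15), and none passed the threshold. JUNB differed between sh#1 and sh#2 tumors by 0.58 (unadjusted p = 0.0278), with q = 0.410 by edgeR. ATF3 had 0 to 5 counts in shCtrl, 2 to 6 in sh#1 and 0 to 4 in sh#2, with the highest level in sh#1 tumor 1 (6 counts, 16.6 CPM).

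Sh#1 tumor 1, the tumor rich in mouse counts, had the highest human level of all 15 tumors for FOS, JUN, JUND, ATF3 and MYC. Left out of the fit, the sh#1 values were 0.58 for DUSP6 and 0.64 for FOS, and neither was called. Its part in the group values beyond this was not tested.

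The mouse counterparts were read from the host table. Of the 10 genes, 4 passed the filter (Fos, Jun, Junb and Dusp6), and their log2 fold changes in CDH11 KD tumors were 0.28 (SE 0.382), -0.17 (SE 0.214), 0.22 (SE 0.406) and 0.05 (SE 0.262). None was called by edgeR, where 0% of the 1669 mouse genes tested were. At an unadjusted p under 0.05 there were 92 of those 1669 genes and none of the 4, and DESeq2 called 1 mouse gene. Mouse Egr1 had 3 to 8 counts in shCtrl, 3 or 4 in sh#1 and 0 to 3 in sh#2 tumors, at counts too low for the filter; Egr1 was named after its values were seen.

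Mouse Fos and human FOS were high in the same tumors, which did not hold for every gene. Sh#1 tumor 1 had 327 CPM of human DUSP6, but the lowest mouse Dusp6 level of all tumors, 130 CPM. The 3 tumors with the most human FOS, sh#1 tumor 1, sh#1 tumor 2 and shCtrl tumor 3, had 63.8, 44.1 and 38.8 CPM. They were also the 3 with the most mouse Fos, at 207, 225 and 180 CPM. Each pair of values comes from 1 library, and how reads were assigned to a species is not given in the sources used here. Adding the mouse counts to the human counts, an alternative chosen after seeing the data, gave EGR1 in sh#2 a log2 fold change of -1.54 (q = 0.0815) and changed no call of the 9 genes. Mouse Dusp6 and Atf3 stood apart in sh#1 tumor 1, with Dusp6 at 130 CPM where the rest of that group had 402 to 470, and Atf3 at 383 CPM where the rest had 32.5 to 70.1.

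**Figure D4:**
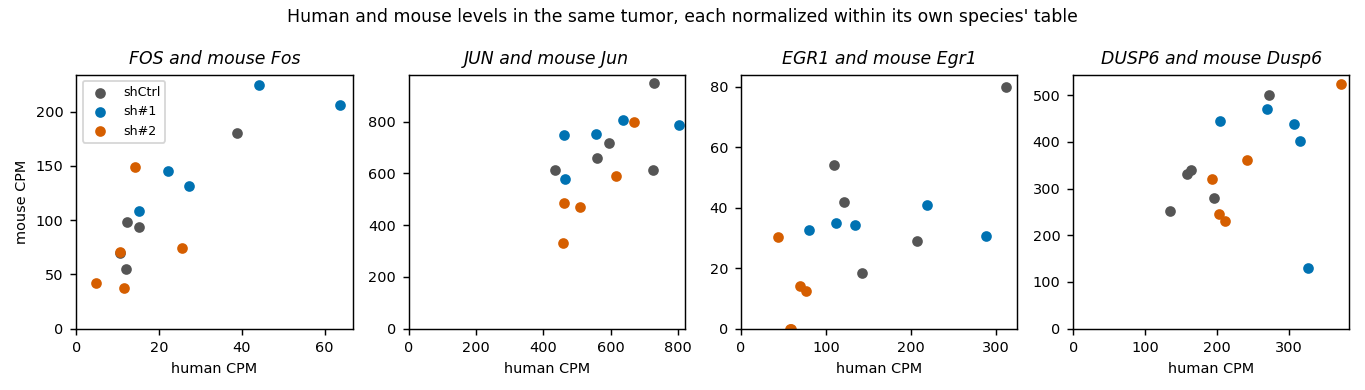
Human (horizontal) and mouse (vertical) level of FOS, JUN, EGR1 and DUSP6 in each of the 15 tumors, in TMM-normalized CPM of each species' own table, coloured by population. The 3 tumors highest in human FOS, at 38.8 to 63.8 CPM, are also the highest in mouse Fos, and the sh#2 tumors hold the lowest human EGR1 levels, 43.8 to 76.6 CPM.

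The 7 lists gave the genes around these 10, and each list is described by its counts and its median beside the values over all genes. In cultured CDH11 KD 9.12% of all genes were called higher and 8.32% lower, and the median over all genes was 0.00017. Other immediate early genes moved most in culture: of 24 tested, 16 were higher and 3 lower in CDH11 KD, with a median log2 fold change of 1.20. DUSP1, a nuclear phosphatase of JNK and p38, rose by 2.24 (SE 0.132) from 29.4 ± 6.73 to 139 ± 7.85 CPM (SD, n = 3 and 6). CCN1, a matrix-associated growth factor, rose by 1.90, PPP1R15A, which brings a phosphatase to the translation factor eIF2, by 1.99, and KLF6, a zinc finger factor, by 1.25, with q of 2.62e-09 to 2.71e-08 by edgeR. The 3 lower genes were SRF (-0.66), IER5 (-0.87) and NAB1 (-0.86). SRF is the serum response factor that binds CArG boxes, and NAB1 encodes a corepressor of EGR1. These 3 were named after their values were seen.

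Other ERK feedback and output genes had 6 of 17 higher and 1 lower in culture, with a median of 0.32. DUSP5, which removes phosphate from ERK in the nucleus, rose by 1.87 (SE 0.122) from 35.5 ± 1.32 to 130 ± 14.2 CPM. PHLDA1, an ERK output gene, rose by 1.19, SPRY1, an inhibitor of receptor signalling to RAS, by 2.68 on 3 to 7 counts in shCtrl, and ELK3, a partner of SRF, by 0.57. SPRY1 passed the low-count filter only through its KD libraries, so the count of 6 is not support by itself. DUSP7, another ERK phosphatase gene, fell by 0.82 on the log2 scale and was named after its value was seen. Its call was lost when any of the 3 shCtrl libraries was left out. Of the ERK, JNK and p38 cascade itself, 2 of 24 genes were higher and 2 lower, with a median of 0.03, close to the shares of 9.12% and 8.32% over all genes. When any 1 shCtrl library or sh#2 replicate 2 was left out, 1 gene of this list was lower. MAPK7, which encodes ERK5, was at 1.10 and MAP2K1, which encodes the ERK kinase MEK1, at 0.51, whereas the scaffold gene KSR1 was at -1.20 and MAP2K3, a p38 kinase gene, at -0.86.

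Other AP-1 and related bZIP genes had 2 of 13 higher and 1 lower, with a median of 0.17. MAFF, a small Maf protein that binds as a partner of larger factors, rose by 2.14 (SE 0.123), and ATF4, the factor of the amino acid and unfolded protein response, by 0.83. ATF5 fell by 1.13 on the log2 scale. AP-1 target genes had 5 of 14 higher and 0 lower, with a median of 0.76. For sh#1 alone 8 were higher and 2 lower, for sh#2 7 were higher and 0 lower, and 8 of the 14 differed between the hairpins (3 higher and 5 lower in sh#1). Over all genes 11.8% were higher and 10.6% lower in sh#1, and 19.5% and 18.8% in sh#2. Between the hairpins 24.7% of all genes differed (11.2% higher and 13.5% lower in sh#1). The 2 lower in sh#1 were PLAU, the urokinase gene, at -0.47, and CD44, a hyaluronan receptor gene, at -0.18, which were called higher in sh#2, at 0.25 and 0.43. Both were named after their values were seen. The chemokine gene CXCL8 rose by 3.60 (SE 0.275) from 2.36 ± 0.309 to 29.5 ± 6.15 CPM, the urokinase receptor gene PLAUR by 1.49 and the cytokine gene LIF by 1.42. CXCL8 passed the low-count filter only through its KD libraries, so the counts of AP-1 target genes called higher are not support by themselves. LAMB3, a laminin chain gene named after its value was seen, was at 0.91. HMOX1, named after its value was seen, was not called for both hairpins together and had a log2 fold change of 0.83 in sh#1 and 3.95 in sh#2.

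Genes around MYC did not move one way. In the MYC network, 1 of 12 genes was higher and 2 were lower, with a median of -0.22 (1 lower without shCtrl replicate 3 and 4 lower with 3 groups in the fit). MXI1, an antagonist that competes with MYC for MAX, rose by 1.96 (SE 0.132), whereas MAX fell by 0.42 and the antagonist MXD4 by 0.78 on the log2 scale. For the 28 MYC target genes, CDH11 KD gave 4 calls up and 5 down, with a median of -0.11, where 9.12% and 8.32% of all genes were called. Without shCtrl replicate 3 there were 2 calls up and 3 down, without shCtrl replicate 1 there were 3 down, and with 3 groups in the fit 10 down. Over all genes, 882 were called either way without shCtrl replicate 3, 963 without shCtrl replicate 1 and 3291 with 3 groups in the fit. The moves between settings are therefore not read as a result about the MYC lists. HK2, the first enzyme of glycolysis, rose by 1.90 and the nucleolar gene NPM1 by 0.49, whereas AMD1, an enzyme of polyamine synthesis, fell by 1.55 and the nucleolar gene NOP16 by 0.76 on the log2 scale. The other calls were DDX18 at 0.32, FBL at 0.34, TFRC at -1.17, CAD at -0.80 and CDK4 at -0.32. The hairpins differed on this list: sh#1 had 6 higher and 5 lower, sh#2 had 4 higher and 17 lower, and in the direct comparison 15 of the 28 were higher in sh#1 and 2 lower. Over all genes the shares were 11.8% higher and 10.6% lower in sh#1, and 19.5% and 18.8% in sh#2. In the direct comparison 11.2% of all genes were higher in sh#1 and 13.5% lower. MYC itself differed between the hairpins by 0.13 (95% interval -0.06 to 0.32, q = 0.342 by edgeR).

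**Figure D5:**
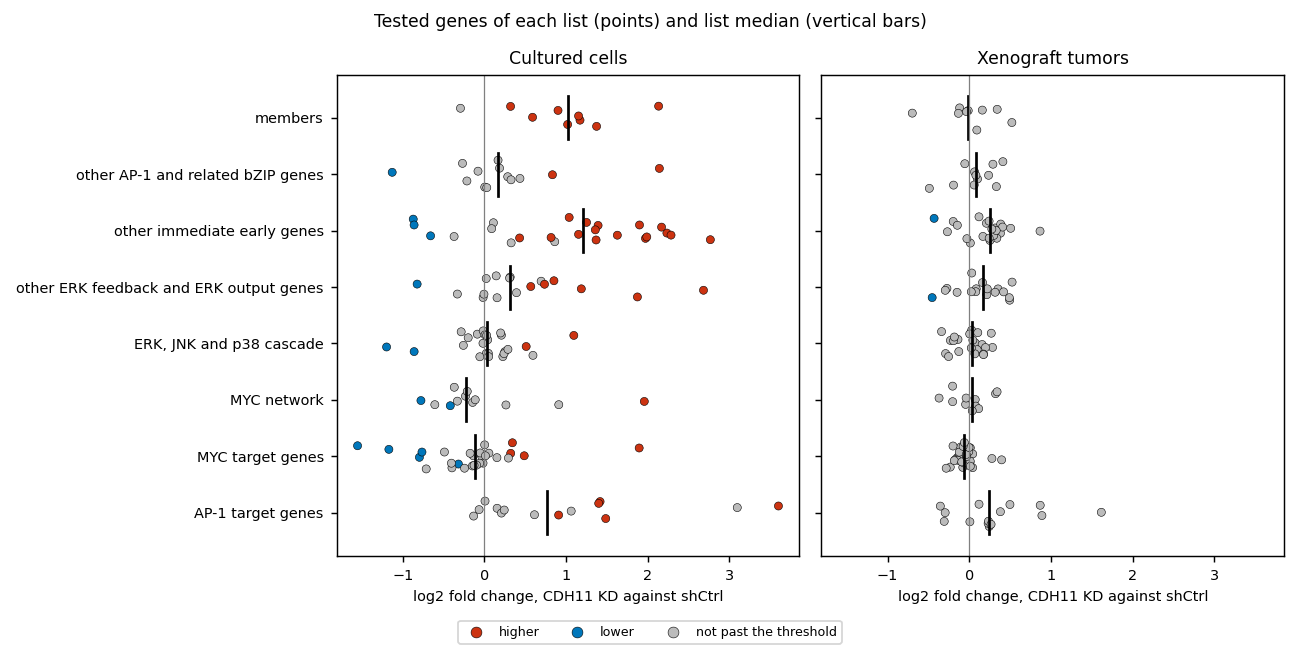
Log2 fold change in CDH11 KD against shCtrl of every tested gene in each list, in cultured cells (left) and tumors (right), with the list median as a vertical bar. In culture the median of other immediate early genes is 1.20 and of AP-1 target genes 0.76, and in tumors the medians lie between -0.06 and 0.25.

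In the tumors 2 list genes were called in CDH11 KD, both lower. They were 1 of 22 other immediate early genes and 1 of 17 ERK feedback and output genes, with none in the other lists. Over all genes 0.697% were called higher and 0.817% lower, so these calls are not read as a result about the lists. IER2, an immediate early gene, fell by 0.43 (SE 0.110, q = 0.0530) and CCND1, the cyclin D1 gene, by 0.45 on the log2 scale (SE 0.118, q = 0.0631 by edgeR). CCND1 was not called with the covariate for the mouse to human ratio, and neither gene was called without shCtrl tumor 1, 2 or 4. Without shCtrl tumor 3, IER2 was not called. Medians in tumors were 0.25 for other immediate early genes (17 of 22 tested genes above 0), 0.24 for AP-1 target genes (11 of 14) and 0.16 for ERK feedback and output genes (13 of 17), against 0.0055 over all genes. By hairpin, the immediate early median was 0.33 in sh#1 tumors (19 of 22 above 0) and -0.04 in sh#2 (10 of 22), that of AP-1 target genes 0.40 (12 of 14) and -0.03 (7 of 14), and that of ERK feedback and output genes 0.17 (11 of 17) and 0.12 (12 of 17). In sh#1 tumors CXCL8 was higher by 1.39 (q = 0.0600) and DUSP5 by 0.68 (q = 0.0379 by edgeR), both named after their values were seen. Of all genes 0.773% were called higher in sh#1 tumors. The differences between culture and tumors were not tested.

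Over the 9 cultured libraries the 3 genes whose log2 levels followed each tested gene most closely were, for JUN, ANGPTL4, PFKFB4 and BHLHE41, with Pearson's r of 0.999, 0.995 and 0.995. FOSL1 was followed by UPP1, DDIT3 and FTL (r = 0.993, 0.992 and 0.990), MYC by MTHFD2, AVPI1 and CCN2 (0.984, 0.984 and 0.980) and DUSP6 by ARHGEF2, ANKRD37 and KLF6 (0.985, 0.978 and 0.978). For FOSL2 the closest were POLR1E, IMMT and MIPOL1 (0.965 to 0.957), for JUND ATP2A2, TOB1 and PYURF (0.981 to 0.961) and for JUNB YIPF6, EHD2 and SNX11 (0.932 to 0.915). ATF3, at 2 to 19 counts, was followed by HDAC9, POLR2H and PRPF6 (0.983 to 0.970), and EGR1, at 5 to 27 counts, by HMMR, DHX32 and PSMC1 (0.957 to 0.955). Among the members, JUN and FOSL1 had r = 0.985 and JUN and DUSP6 0.964, while JUN and JUND had -0.732. With 3 populations these values mainly follow the difference between KD and shCtrl libraries, which all points share, and they carry no test.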

How the data were processed

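RNA-seq counts of 9 cultured libraries and 15 tumors were analysed. The authors deposited raw counts per gene. Per the methods, cultured reads were trimmed in CLC Genomics Workbench and mapped to hg38 with RaNAseq, and tumor reads were trimmed with Trim Galore and mapped to hg38 with HISAT2. The counting tool, its use of strand or molecular identifiers and the separation of species are not given in the sources used here. A few rows of the cultured table without values were not analysed here.

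Counts were fitted with edgeR 4.0.16 in R 4.3.3 (TMM, filterByExpr, robust quasi-likelihood test, Benjamini-Hochberg q over all genes tested). CDH11 KD used 2 arms, and each hairpin and their difference a 3-group fit. Thresholds on q were 0.05 in culture and 0.1 in tumors, after the study's methods. Their further limit in culture, a log2 fold change beyond 1 either way, was not applied to calls. Mouse counts were fitted alone. SE was the log2 fold change divided by the root of F. Levels are CPM over TMM-scaled totals. All 10 members were named, as were up to 4 called genes a list and system by smallest q in CDH11 KD, the 3 most alike genes of each member and mouse counterparts with a mean of at least 5 counts. A called gene of the lists is not reported here. Members and lists were chosen with earlier results of these data known. No source says whether libraries of a group came from separate cultures, so p-values measure the spread between these samples. Every replicate pair of a group differed by more than sampling noise. Depth limits genes with few counts. Other settings were DESeq2 1.42.0, upper quartile scaling, no filter or a minimum of 10 counts throughout, single replicates left out, a replicate block, other sets of groups in the fit, a covariate for the mouse to human ratio and, added later, mouse counts added. The fits were tested on simulated data.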

Additional observations from a re-analysis of the deposited data

Results flagged for a closer look

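Levels of the members were examined for tumors far from the other 4 of their group (the gap to the nearest tumor over the whole range of the group, against Dixon's 95% value). Of 51 groups, human genes and mouse counterparts with a mean of at least 5 counts together, 10 were flagged. Dixon's value flags about 1 in 20 of independent, normally distributed groups. These groups share the same tumors and some have few counts, so the 10 flags cannot be set against that rate. Among human genes, ATF3 was high in sh#1 tumor 1 at 16.6 CPM (others 2.02 to 5.65), FOS in shCtrl tumor 3 at 38.8 CPM (10.7 to 15.1), DUSP6 in sh#2 tumor 4 at 372 CPM (193 to 242) and FOSL2 in sh#1 tumor 2 at 226 CPM (160 to 169), whereas FOSL1 was low in shCtrl tumor 5 at 65.9 CPM (103 to 114). Among mouse genes, Atf3 (383 CPM) and Jund (130 CPM) were high and Dusp6 (130 CPM) low in sh#1 tumor 1, Jund was high in shCtrl tumor 2 at 123 CPM (40.0 to 55.9), and Jun was low in sh#1 tumor 5 at 578 CPM (748 to 807). Sh#1 tumor 1 holds 4 of the 10 flags and has the fewest human counts, and its part in them was not tested.

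The effects of the hairpins on FOSL1 in culture differed by a log2 value of -0.29 (sh#1 less than sh#2), by the contrast of the 3-group fit. EGR1 in sh#2 lay above the shCtrl mean in all 3 cultured libraries, at 2.59 times its mean, and below it in all 5 tumors, at 0.344 times its mean. Cultured shCtrl had only 5 to 13 counts of EGR1, which passed the low-count filter there only through its KD libraries. The difference between the systems was not tested.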

How the results depend on the processing

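In culture the calls of FOSL1, JUN, ATF3, MYC and DUSP6 held in every alternative tested, and no member changed direction in CDH11 KD or either hairpin there. ATF3 was tested only where its KD libraries carried it past the filter, so its calls are not support by themselves. Gene totals moved more: CDH11 KD in culture called 3291 genes with 3 groups in the fit and 882 to 1873 when single replicates were left out, DESeq2 called 1346 for sh#1 and 1533 between the hairpins, and MYC target genes called lower were 10 with 3 groups. Members called lower in sh#2 ranged from 0 to 1 (JUND) over the left-out replicates.

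In tumors CDH11 KD called 276 genes with no filter, 227 with 3 groups, 63 with the mouse ratio as a covariate and 48 to 399 without single replicates. Sh#1 called 243 with no filter, 89 with at least 10 counts and 69 to 287 without single replicates. Sh#2 called 126 to 552 without single replicates, and sh#1 against sh#2 called 173 with no filter, 63 with at least 10 counts, 180 with those groups alone and 44 to 144 without single replicates. Mouse genes called were 8 with no filter and 1 with DESeq2. With no filter, 1 member (DUSP6) was called higher in CDH11 KD and 1 in sh#1, 1 (FOS) between the hairpins, and 0 lower in sh#2. Between sh#1 and sh#2 tumors 1 member, EGR1, was called under DESeq2, the covariate and the replicate block. Left-out replicates gave 0 to 1 members higher in CDH11 KD, 0 to 2 in sh#1, 0 to 1 in sh#2 and 0 to 1 lower in sh#2. Without shCtrl replicate 3 these were DUSP6, with FOS added in sh#1. The cause of these moves was not tested.

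Signs turned for log2 fold changes near 0 in tumors: FOSL2 in CDH11 KD (0.0152 with the covariate, 0.00086 with mouse counts added, -0.0996 to 0.0611 without single replicates), JUNB (0.14 with mouse counts added, -0.15 to 0.25), FOSL1 (-0.0192 to 0.13), EGR1 in sh#1 (-0.38 to 0.13), FOS in sh#2 (-0.82 to 0.0410) and MYC in sh#2 (-0.15 to 0.12), and mouse Dusp6 was at -0.0205 with no filter.

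Replicate numbers did not pair the samples: same-numbered libraries deviated together with correlations of -0.007 to 0.066 in culture and -0.095 to 0.124 in tumors, with 2 of 15 pairs over 0.1. With the replicate block JUNB in cultured CDH11 KD was at 0.60 (q = 0.0723 by edgeR, not called), and EGR1 between sh#1 and sh#2 tumors was at 1.36 (q = 0.0746, called), so 1 member was called higher there. Depth limits FOS and ATF3 most, at 0 to 12 and 2 to 19 counts in culture.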
